A study of Bos indicus with 72 samples.

Results

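Right ovaries from 12 heifers of the Brahman, a beef breed of Bos indicus, were compared between 6 animals labelled pre-pubertal and 6 labelled post-pubertal. These 12 libraries, 1 per animal, were chosen by their tissue and puberty status labels from the 72 libraries of a study of 6 tissues. No treatment is labelled, and ages are not stated in the labels. The ovaries were whole-tissue RNA samples, so every value below is an average over all cell types present. In such samples, fewer cells of a type and less RNA per cell cannot be told apart. The files identify genes by Ensembl numbers that are not paired with gene names in the sources used here, so the tissue label could not be checked against marker genes and no gene functions are given.

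Before puberty the bovine ovary holds follicles that grow and regress in waves without releasing an egg. Puberty is marked by the first ovulation, after which the cells of the emptied follicle form a corpus luteum, a gland that secretes progesterone and that sits in the ovary that ovulated. Follicle growth and luteal tissue both change which cells make up an ovary, and the ovaries of an animal can therefore differ from each other. The labels say neither which ovary ovulated nor at which stage of the cycle an animal was sampled.

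The status of 2 animals is in doubt. Animal 2054 is labelled pre-pubertal in 4 tissues, the right ovary included, and post-pubertal in the other 2. Animal 2059 carries the opposite labels, post-pubertal in 4 tissues and pre-pubertal in 2. Both were kept as labelled for the right ovary, and the main count is also given without them. File names divide the right ovary libraries into 2 sets of 6, each with 3 animals of either group, and values within a set, 3 animals against 3, are given for the named genes whose call they end. In the left ovary, used below as a second organ of the same animals, 3 libraries stood apart by reads not aligned uniquely, with 50.3% in animal 2060, 31.8% in 2047 and 22.2% in 2059 against 8.65% to 10.3% in the other 9.

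The libraries were shallow where genes are concerned. Between 30.4 and 44.1 mega-reads per library yielded only 184808 to 334454 reads in genes, 0.603% to 1.099% of the total, while a median of 89.8% fell in no annotated gene. A single read was therefore worth 2.99 to 5.41 CPM, the unit in which the counts of a library are scaled to a common total of gene reads. The counted reads may be an uneven sample of ovary RNA, so a gene that is scarce here need not be scarce in the ovary. Of 24616 genes listed, 15978 had a read in some right ovary library, and 2073 had enough reads to be tested. Those 2073 genes held 91.0% of all gene reads, with a median of 25.2 reads per gene and library. The limit given below for a library with 0 reads covers counting error only, and the reads carry no molecular identifiers. The SD values are spreads over animals, and the SE values of the edgeR fits include variation between animals.

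The counted gene reads of the right ovary were more concentrated on a few genes after puberty, most strongly in animals 2047 and 2059. The most counted gene took 12.04 ± 1.78% of gene reads in pre-pubertal animals and 21.1 ± 8.29% in post-pubertal animals (SD, n = 6 each; exact permutation test, two-sided, p = 0.0152, Benjamini-Hochberg adjusted p = 0.0456 over 6 library measures). In the test across genes below, this gene changed by 1.64 ± 0.46 (SE) in log2 units, at an adjusted p of 0.0703 by edgeR, so it was not among the genes called. Its share ran from 9.82% through a median of 11.9% to 14.97% before puberty and from 11.4% through 19.2% to 33.1% after it. The groups overlapped, because post-pubertal animal 2061 lay among the pre-pubertal animals at 11.4%. The 10 most counted genes together took 31.2 ± 2.60% before puberty and 45.3 ± 13.4% after it (SD, n = 6 each; exact permutation p = 0.00649, adjusted p = 0.0389). Animals 2047 and 2059 had the highest values of both measures, with 67.0% and 55.7% in the 10 most counted genes. Without these 2 animals the difference in the most counted gene shrank from 9.04 to 4.27 percentage points, with an exact permutation p of 0.0667. Without animals 2054 and 2059 it was 7.19 points, with an exact permutation p of 0.0556. For the 10 most counted genes the difference was 14.1 points with all animals. It was 6.10 points without 2047 and 2059, with an exact permutation p of 0.0286. Without 2054 and 2059 it was 11.7 points, with an exact permutation p of 0.0238.

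**Figure D1:**
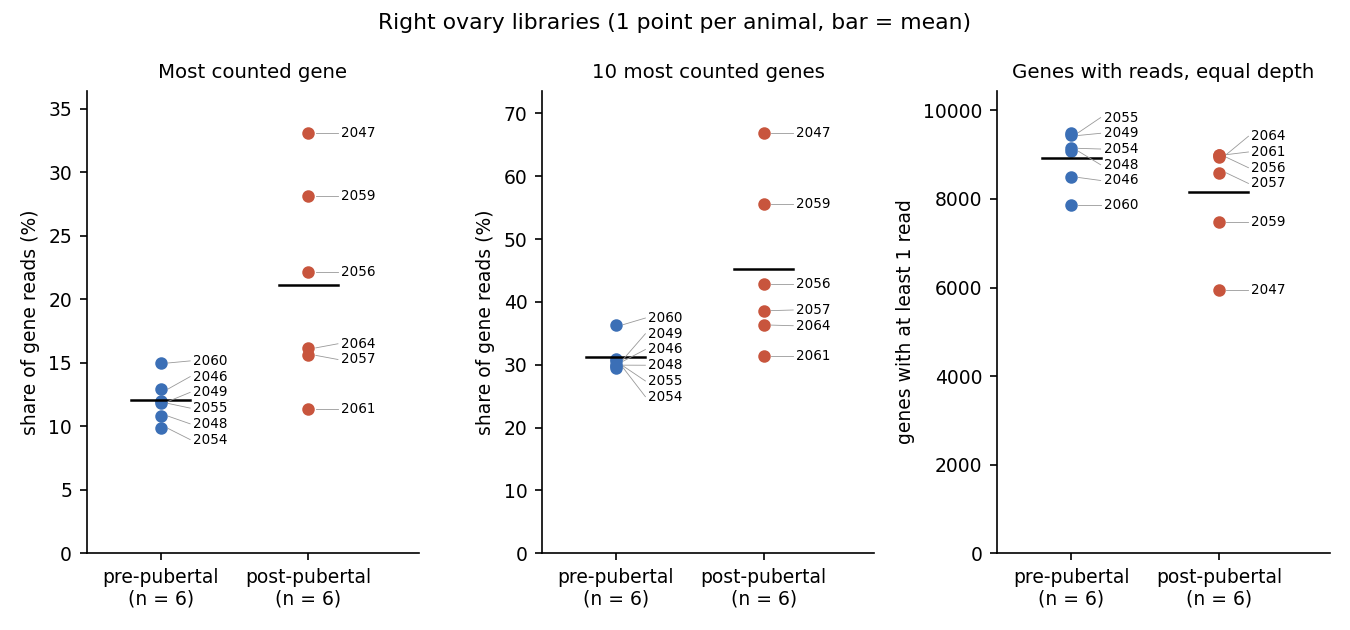
Each point is 1 right ovary library, labelled with its animal number, and the bar is the group mean. The left and middle panels show the share of gene reads in the most counted gene and in the 10 most counted genes (percent), and the right panel shows the number of genes with at least 1 read after thinning to equal depth. Animals 2047 and 2059 have the largest shares and the fewest genes.

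Other library measures did not pass the test. After thinning every library to 184808 gene reads, 8919 ± 627 genes had a read before puberty and 8160 ± 1233 after it (SD, n = 6 each; exact permutation p = 0.216). That difference of -758.6 genes was -314.6 without animal 2047 and -34.77 without animals 2047 and 2059. The share of reads in genes was 0.651 ± 0.0331% before and 0.791 ± 0.180% after puberty (SD, n = 6 each; exact permutation p = 0.0801). Reads not aligned uniquely made up 11.1 ± 2.82% before and 9.20 ± 1.095% after puberty (SD, n = 6 each; exact permutation p = 0.0974). Without animal 2061 the exact permutation p, unadjusted, was 0.0216 for the share of reads in genes and 0.013 for reads not aligned uniquely. The difference in the share of reads in genes was 0.139 percentage points with all animals, 0.0777 without animal 2047 and 0.0372 without 2047 and 2059. Each library's distance from the rest of its group, a root mean squared log2 difference over the tested genes, was 0.576 ± 0.113 before and 0.656 ± 0.157 after puberty (SD, n = 6 each; exact permutation p = 0.361). The largest distance, 0.956, was that of animal 2047. The smallest p that this design allows is 0.00216.

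Between the groups 50 of the 2073 tested genes, 2.41%, differed in the right ovary, and most of these were higher after puberty. Of the 50, 44 were higher after puberty (2.12% of genes tested) and 6 were lower (0.289%), by edgeR's quasi-likelihood test with a Benjamini-Hochberg adjusted p under 0.05. At an unadjusted p under 0.05 there were 380 genes, 229 higher and 151 lower. The rises were large: 40 genes rose at least 2-fold, 19 at least 4-fold and 11 at least 8-fold, with log2 changes from 0.77 to 4.41 and a median of 1.86. The falls were smaller, with log2 changes from -1.55 to -0.80 and a median of -1.04. The median change over all tested genes was -0.02 on the same log2 scale, and the median standard error was 0.31 for all tested genes and 0.38 for the called ones.

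These counts depend on scaling and on single animals. The changes above are relative to scaling factors (TMM) that correct for a few genes taking a large share of reads. The factor was 0.402 for animal 2047 and 0.674 for animal 2059, and lay between 0.984 and 1.27 in the other 10 libraries. With library sizes alone, the median log2 change of all tested genes moved to -0.49, and 27 genes were called, 17 higher and 10 lower. Called genes numbered 29 without animal 2047, 21 without 2059, 33 without 2054 and 89 without 2061, and 19 without 2054 and 2059 together. In each of these 6 alternatives all 50 genes kept their direction. With the statuses of 2054 and 2059 read as in liver and uterus, edgeR called 0 genes, with 88 at an unadjusted p under 0.05. DESeq2 and voom were not applied to the exchanged labels.

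**Figure D2:**
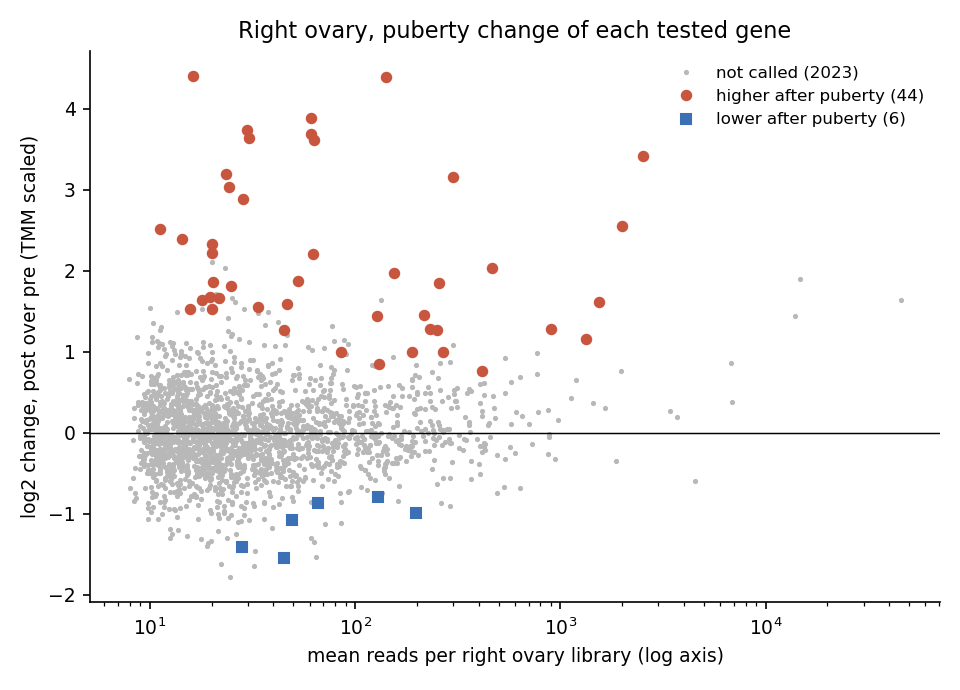
Each point is 1 of the 2073 genes tested in the right ovary, with the mean number of reads per library on the x axis (log scale) and the log2 change from pre-pubertal to post-pubertal on the y axis. The 44 genes that rose (circles) reach 4.41, while the 6 that fell (squares) stay above -1.60.

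Calls were more frequent among well-counted genes. None of 79 genes with a mean under 10 reads per library was called, against 17 of 1098 genes with 10 to 30 reads (1.55%), 13 of 581 with 30 to 100 (2.24%) and 20 of 315 with 100 or more (6.35%). The median standard error of the log2 change was 0.361 in the least counted class and 0.216 in the most counted one. Of the 44 rising genes, 11 averaged under 10 reads per pre-pubertal library, and 3 had 0 reads in at least 1 such library, which makes the size of those rises imprecise. At the other end, 6 rising genes already stood at 1000 CPM or more before puberty. The rising genes went from a median of 102 CPM to 351 CPM and the falling genes from 327 CPM to 126 CPM.

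The 11 genes that rose at least 8-fold covered a wide range of levels. Their means ran from 8.15 to 2672 CPM before puberty and from 104 to 14629 CPM after it. For 6 of them, every post-pubertal library lay above every pre-pubertal one. Across all 44 rising genes, such separation in CPM was seen in 11, where 0.531% of all tested genes were separated upward and 3.96% in either direction. The groups were also separated for 3 of the 6 falling genes, where 3.42% of all tested genes were separated downward. On CPM scaled with the TMM factors, separation held for 17 of the 44 rising genes (1.21% of tested genes) and for 0 of the 6 falling genes (0.482%).

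ENSBTAG00000021588 showed the largest rise. Before puberty its values were 0, 7.71 and 20.45 CPM (lowest, median and highest of 6), resting on 0 to 5 reads per library. After puberty they were 48.7, 103 and 167 CPM, from 9 to 56 reads. All 6 post-pubertal libraries thus lay above all 6 pre-pubertal ones. The means were 8.15 ± 6.91 and 104 ± 48.2 CPM (SD, n = 6 each). On the log2 scale the rise was 4.41 ± 0.65 (SE), and edgeR gave an adjusted p of 0.0016. The library with 0 reads, that of animal 2055, allows a level of up to 11.3 CPM. With the statuses of animals 2054 and 2059 read as in liver and uterus the log2 change was 1.55, with an edgeR adjusted p of 0.95. Within library set 2 alone the change was 5.22, with an edgeR adjusted p of 0.0858. Over 25 alternatives the change lay between 1.55 and 5.22 and the edgeR, DESeq2 or voom adjusted p between 7.17e-19 and 0.95. The gene was not tested with the stricter filter (10 or more reads in at least 6 libraries) or after thinning to equal depth. The rise therefore has no value under those alternatives, which the other 3 named genes have.

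ENSBTAG00000043565 rose almost as much from a better counted base. Its lowest, median and highest values were 26.3, 74.3 and 139 CPM before puberty, from 7 to 36 reads, and 308, 801 and 1704 CPM after it, from 57 to 570 reads. No post-pubertal library fell below a pre-pubertal one. The means were 76.2 ± 39.8 and 887 ± 491 CPM (SD, n = 6 each). The fitted rise was 4.40 ± 0.61 (SE) in log2 units, at an adjusted p of 0.0016 by edgeR. Animal 2047 was the highest and animal 2061 the lowest post-pubertal library. Over 27 alternatives the change lay between 2.16 and 4.72 and the adjusted p of the tool used between 2.8e-08 and 0.95. Within library set 2 alone the change was 4.70, with an edgeR adjusted p of 0.124. The lowest change again came from the exchanged statuses of 2054 and 2059.

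ENSBTAG00000047551 showed the largest fall among genes separated in CPM. Its values were 127, 282 and 428 CPM before puberty and 8.97, 77.9 and 121 CPM after it (lowest, median and highest of 6). The highest post-pubertal value thus lay just below the lowest pre-pubertal one, and on TMM-scaled CPM the groups overlapped. The means were 278 ± 118 and 74.3 ± 46.3 CPM (SD, n = 6 each). The fitted change was -1.55 ± 0.36 (SE) in log2 units, at an adjusted p of 0.032 by edgeR. Without any 1 of the animals 2046, 2054, 2057, 2059 and 2060 the edgeR adjusted p lay above 0.05, at most at 0.0789. Within library set 1 alone the log2 change was -0.54, with an edgeR adjusted p of 0.684, and within library set 2 alone it was -2.45, with an edgeR adjusted p of 0.111. The edgeR, DESeq2 or voom adjusted p ran from 5.15e-06 to 0.95 over all 27 alternatives.

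ENSBTAG00000004792 was the other falling gene singled out by size. Its values were 94.3, 171 and 250 CPM before puberty and 14.95, 53.8 and 75.8 CPM after it (lowest, median and highest of 6). The groups were separated in CPM and overlapped on TMM-scaled CPM, as for the previous gene. The means were 174 ± 64.5 and 49.2 ± 28.0 CPM (SD, n = 6 each). In log2 units it changed by -1.41 ± 0.32 (SE), for which edgeR gave an adjusted p of 0.028. Leaving out animal 2049, 2054, 2059 or 2064 took the edgeR adjusted p above 0.05, at most to 0.0663. Within library set 1 alone the change was -0.98, with an edgeR adjusted p of 0.456, and within set 2 alone -1.86, with an edgeR adjusted p of 0.134. Over 27 alternatives the change lay between -1.86 and -0.499 and the adjusted p of the tool used between 0.000687 and 0.969.

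**Figure D3:**
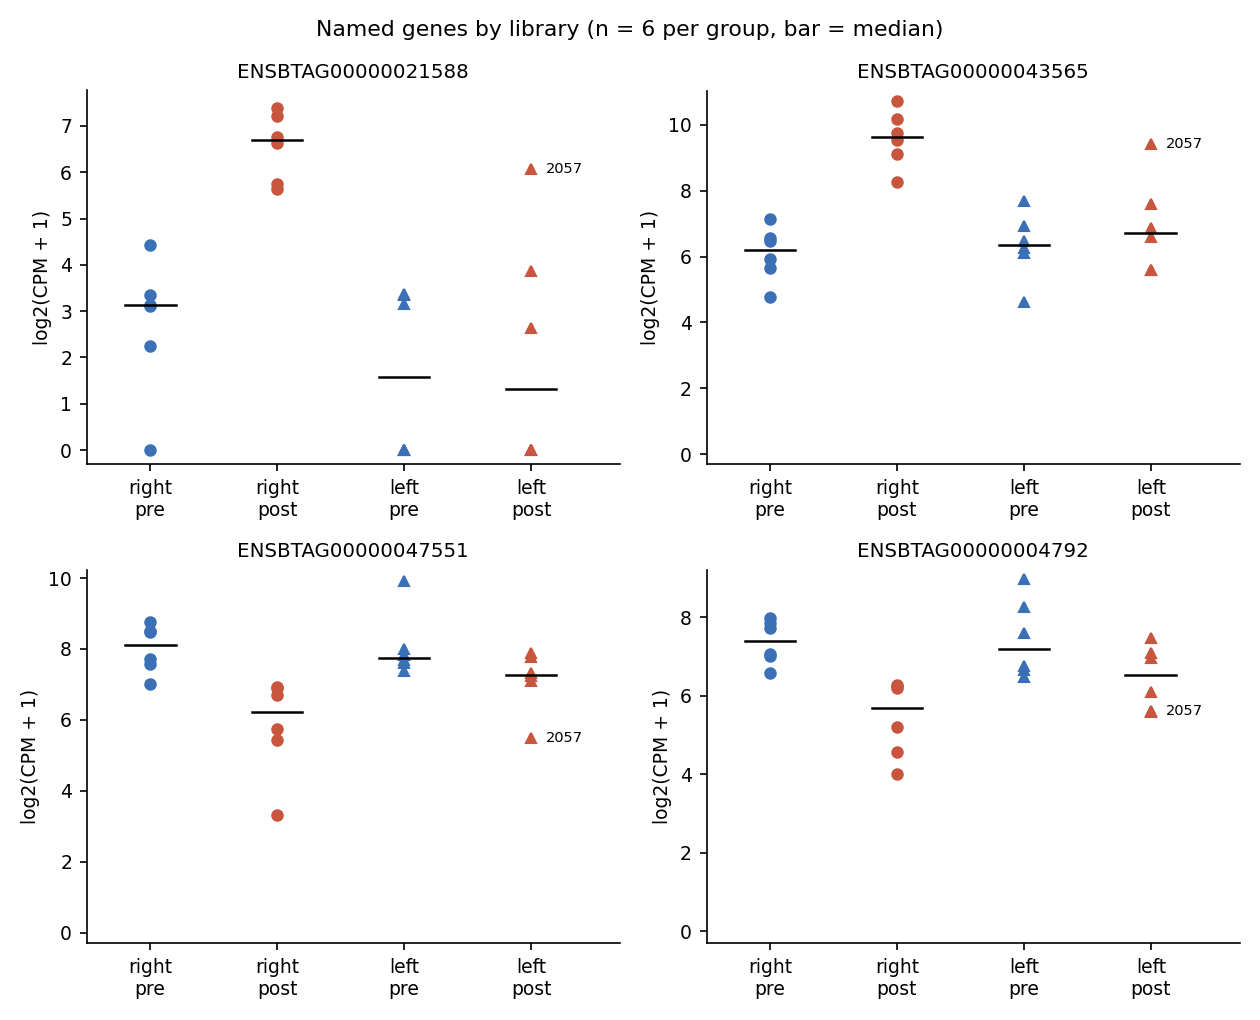
Each panel is 1 gene, with log2(CPM + 1) on the y axis, 6 libraries per group and a bar at the median; circles are right ovaries and triangles left ovaries. In the right ovary the post-pubertal points of the upper 2 genes lie above and those of the lower 2 genes below all pre-pubertal points, and in the left ovary animal 2057 is labelled.

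The median level of the 44 rising genes was higher in each post-pubertal right ovary than in any pre-pubertal one, to different degrees. All 44 lay above their pre-pubertal mean in 4 of the post-pubertal libraries and 43 did so in animals 2057 and 2061. Because the genes were chosen on these libraries, the values per animal are a description. Their median log2 level, relative to the pre-pubertal mean of each gene, lay between -0.20 and 0.15 in the 6 pre-pubertal libraries. It was 2.84 in animal 2047, 1.91 in 2059, 1.74 in 2064, 1.53 in 2057, 1.07 in 2056 and 0.70 in 2061. At least a 2-fold rise was reached by 43 of the 44 genes in animal 2047, by 41 in 2059, by 38 in 2064, by 37 in 2057, by 24 in 2056 and by 12 in 2061. In animal 2061, 26 of the 44 genes lay above all 6 pre-pubertal libraries, where 13.8% of all tested genes did. Together the 44 genes held 2.33% to 2.92% of gene reads before puberty and 3.84% to 9.495% after it, a measure that uses no scaling factor and in which the groups did not overlap.

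Which animal ranked highest depended on the scaling. Among the post-pubertal libraries, animal 2047 was highest for 31 of the 44 genes on TMM-scaled CPM and for 13 on CPM, where animal 2064 led for 18. Animal 2061 was lowest for 26 and 19 of the 44 genes on these scales. Over all 2073 tested genes animal 2047 was lowest for 74.1% in CPM and for 28.5% in TMM-scaled CPM. With the most counted gene left out of all libraries, 49 genes were called, 48 of them among the 50, and with the 10 most counted genes left out, 43 were called, all among the 50. The 6 falling genes were below the pre-pubertal mean in all 6 post-pubertal right ovaries, with medians from -1.42 in animal 2059 to -0.64 in animal 2056 on the log2 scale.

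The left ovaries of the same heifers showed this pattern in 1 animal. In the left ovary of post-pubertal animal 2057, the 44 genes had a median log2 level of 1.96 relative to the pre-pubertal left ovaries, and 36 of them were at least 2-fold higher. In the other 5 post-pubertal left ovaries the median lay between -0.12 and 0.19, within or close to the range of -0.17 to 0.15 in the pre-pubertal left ovaries. Among these 5, animals 2047 and 2059 had 31.8% and 22.2% of left ovary reads not aligned uniquely. The part of this in their levels was not tested. The left library of 2057 exceeded all 6 pre-pubertal left libraries for 37 of the 44 genes, where it did so for 21.9% of the 2073 genes tested on the right. The other 5 did so for 5 to 11 of the 44 genes, with 10.7% to 15.5% over all tested genes. The 44 genes held 9.35% of the gene reads in the left ovary of 2057 and 2.42% to 2.93% in the other post-pubertal left ovaries. These libraries were not used to choose the genes, although they come from the same animals.

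**Figure D4:**
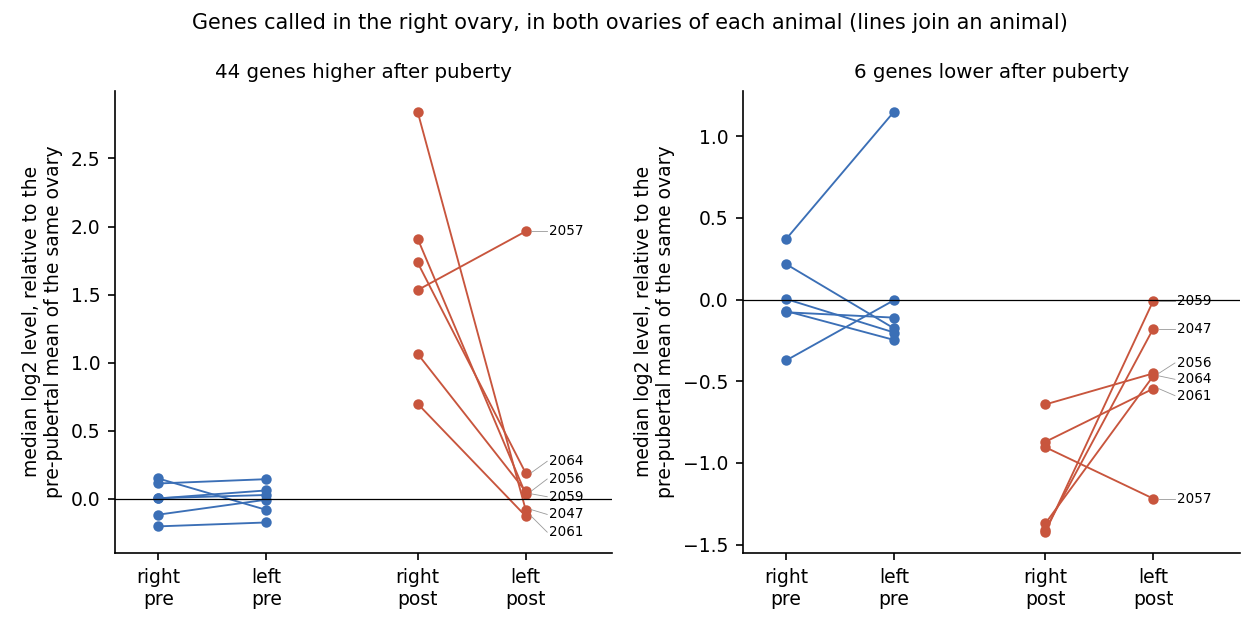
Lines join the right and left ovary of an animal, with the median log2 level of the 44 genes that rose (left panel) or the 6 that fell (right panel) in the right ovary, each relative to the pre-pubertal mean of the same ovary, on the y axis. Post-pubertal animals are labelled at their left ovary, where 2057 stands at 1.96 for the rising genes and the other 5 lie between -0.12 and 0.19.

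In animal 2057 both ovaries were thus high in the genes that rose. The 6 falling genes were also low in its left ovary, with a median of -1.22 on the log2 scale, against -0.55 to -0.01 in the other 5 post-pubertal left ovaries. The left library of 2057 had the most gene reads of its side, 272306, and the largest share in the most counted gene, 16.7%. Its counts differed from those of the right library of 2057 by a mean chi-square of 3.82 per gene, where sampling noise gives 1. In the other 11 animals the right and left libraries differed by 4.05 to 77.7, with the largest value in animal 2047. The part of depth and of the most counted gene in the pattern of the left ovary of 2057 was not tested.

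**Figure D5:**
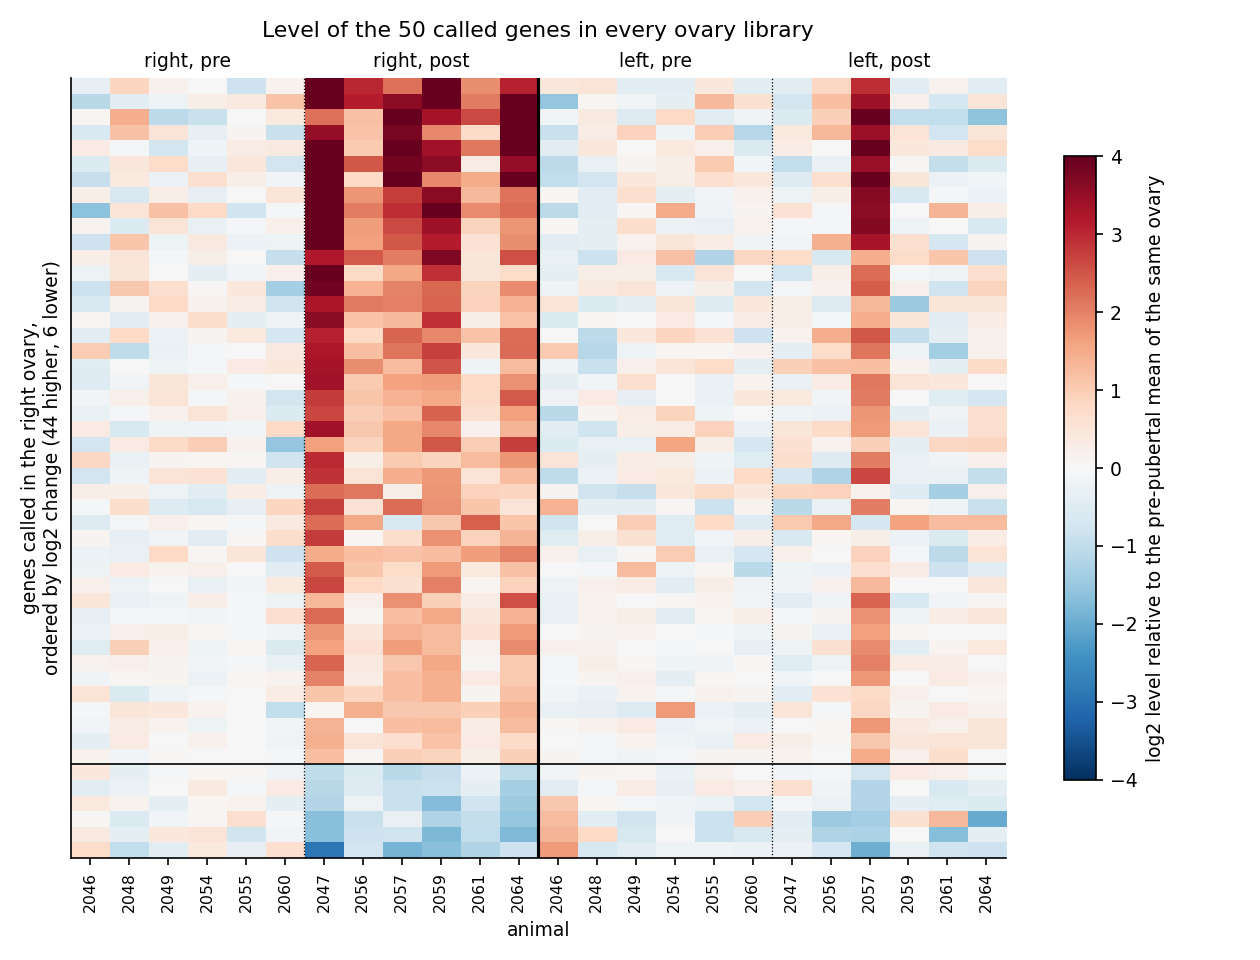
Rows are the 50 genes called in the right ovary, ordered by log2 change with the 44 that rose above the line and the 6 that fell below it, and columns are all 24 ovary libraries by side, group and animal. The color is the log2 level relative to the pre-pubertal mean of the same ovary, with values beyond 4 in either direction shown at the end of the scale, and the left ovary of 2057 has the same red block as the post-pubertal right ovaries.

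As a group comparison the left ovary gave no called gene. Of 1922 genes tested there, 0 (0%) passed edgeR's threshold, 101 had an unadjusted p under 0.05, and DESeq2 called 0. When sparse genes were kept in the fit, edgeR called 4. Of the 44 genes that rose on the right, 33 were tested on the left. Their left log2 changes had a median of 0.57, 32 were above 0, where 48.9% of all genes tested on the left were, and 8 had an unadjusted edgeR p under 0.05 with a higher level after puberty, where 2.65% of genes tested on both sides did. Without animal 2057 the median was 0.10, and 22 of the 33 were above 0, against 46.9% of all genes tested. Of the 33, 1 then had an unadjusted edgeR p under 0.05 with a higher level, and of all 2053 genes tested in that fit, 84 had such a p in either direction. ENSBTAG00000043565 had 96.9 ± 62.2 CPM before and 196 ± 243 CPM after puberty on the left (SD, n = 6 each), and the post-pubertal values other than the 679 CPM of 2057 ran from 46.7 to 194 CPM. All 6 falling genes were tested on the left and had log2 changes below 0, from -1.01 to -0.039 with a median of -0.44. Of the 1813 genes tested on both sides, 922 fell on the left. An unadjusted edgeR p under 0.05 was found for 3 of the 6, against 5.13% of genes tested on both sides in either direction. The 2 falling genes named above changed by -1.01 each on the log2 scale on the left, with an edgeR adjusted p of 0.911 each. For both, animal 2046 had the highest pre-pubertal left value. ENSBTAG00000047551 had 957 CPM there, with left medians of 215 CPM before and 154 CPM after puberty. ENSBTAG00000004792 had 495 CPM there, with left medians of 150 and 95.5 CPM. Their left changes without animal 2046 are not given here.

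Whether the puberty change differed between the ovaries was tested directly, with the animal as a block. None of 2476 genes (0%) passed edgeR's threshold, the smallest adjusted p was 0.88, and 136 genes had an unadjusted p under 0.05. Of the 43 rising genes in this fit, 27 had an unadjusted edgeR p under 0.05, against 5.52% of genes tested on the right, but they were chosen on those right libraries, so nothing is read from their count. DESeq2 with the same block called 0, and edgeR called 6 when sparse genes were kept. Without animal 2057, edgeR called 11 of 2514 genes tested, each with the larger rise on the right, and 9 of them were among the 44 genes that rose there. The right libraries on which the 44 were chosen enter this fit too, so nothing is read from that overlap. For ENSBTAG00000043565 the rise on the right exceeded that on the left by 3.27 ± 0.90 (SE) on the log2 scale, with an edgeR adjusted p of 0.88. ENSBTAG00000021588 was too sparse to be tested on the left alone, with at most 2 reads in any pre-pubertal left library. Its rise on the right exceeded that on the left by 2.73 ± 1.82 (SE) on the log2 scale, with an edgeR adjusted p of 0.892. A change on the right only was therefore not shown across all 12 animals.

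In the hypothalamus and pituitary of the same heifers the called genes had no common level. The 44 rising genes had a median of 40.1 CPM in the hypothalamus and 26.6 CPM in the pituitary, and all tested genes had medians of 36.4 and 38.9 CPM. Of the 44, 30 were lower in the hypothalamus and 35 in the pituitary than in the right ovary, against 72.7% and 71.6% of all tested genes. The range was wide, with 5 of the 44 above 1000 CPM in the hypothalamus and 4 in the pituitary, against 1.93% and 2.32% of all tested genes. The highest means in the hypothalamus and the pituitary, 56970 and 16999 CPM, belonged to a single gene that went from 988 to 2325 CPM in the right ovary. ENSBTAG00000021588 had a mean of 8210 CPM in the pituitary and 451 CPM in the hypothalamus, well above its 104 CPM in post-pubertal right ovaries. ENSBTAG00000043565 had 104 CPM in the hypothalamus and 1.04 CPM in the pituitary. ENSBTAG00000047551 was nearly absent from the counts of both, at 0.0191 CPM in the hypothalamus and 0.187 CPM in the pituitary. The 6 falling genes were all lower in both tissues than in the right ovary, as were most tested genes by the shares above. Levels are shares of the gene reads of each tissue, and no test was made between tissues. In the right ovary only 0.603% to 1.099% of reads fell in genes, a possibly uneven sample. Depth and share of reads in genes are not given here for the hypothalamus and pituitary. A difference in CPM between tissues therefore need not be a difference in expression.

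The right ovary libraries spread mainly along an axis led by animal 2047. In a principal component analysis of the 2073 genes, the first component held 33.4% of the variance and the second 16.1%. On the first component the pre-pubertal libraries lay between -14.9 and -7.40 and the post-pubertal ones between -6.53 and 39.8, so the groups did not overlap, with animal 2061 nearest to the pre-pubertal animals and 2047 farthest from them. The common biological coefficient of variation was 0.316 among pre-pubertal and 0.359 among post-pubertal libraries, and 0.293 among the 4 post-pubertal libraries other than 2047 and 2059. On the second component the library sets lay apart in all 12 libraries, with the 6 of set 1 at -5.17 or lower and the 6 of set 2 at -2.70 or higher.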

How the data were processed

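Total RNA was isolated with Trizol and silica columns, and paired-end TruSeq libraries were sequenced, per the labels' protocols. The deposited values are unnormalized gene counts, on the UMD3.1 build per the submitters' processing notes. Neither aligner, annotation nor strand setting is given in the sources used here, so the strand from which the counted reads came is not known. Reads not aligned uniquely and reads ambiguous between genes were tallied apart and are not in the gene counts. Rows for reads in no gene, a median of 89.8% of right ovary reads, stayed out of library sizes and tests. None of the 24616 identifiers matched the RefSeq gene table at hand (0 matches), so the gene lists and marker lists that had been drawn up were not used.

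Post-pubertal libraries were tested against pre-pubertal ones with edgeR 4.0.16 (quasi-likelihood F test, TMM factors, filterByExpr, robust dispersions), with two-sided p-values adjusted by Benjamini-Hochberg over the whole table and calls at 0.05. Each standard error was taken from the F statistic. Alternatives used DESeq2 1.42.0, limma voom 3.58.1, other filters and factors, the library set given by file names and left-out animals. Called genes described per library were put on log2 TMM-scaled CPM with a prior count of 2. The fits were tested on simulated data with the same dispersion for every gene, no animal effect and as many rises as falls. The outcome is not given here, and the side by puberty fit was not held to the recovery limit set for the other fits. Libraries as concentrated on a few genes as that of animal 2047 were not simulated.

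The side by puberty test has the animal as a block, by the labelled animal number. After subtracting group means, right and left libraries of 1 animal had a median correlation of 0.247, over 0.1 for 10 of 12 animals, and those of different animals -0.0307. No pair of right ovary libraries of a group was a duplicate (mean chi-square per gene at least 4.05). Genes named are the 2 largest rises and 2 largest falls among called genes with at least 50 CPM in the higher group and no overlap in CPM. The comparison, members and lists were chosen with earlier results of these data known. Liver and uterus files, in other units, were not used here.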

Additional observations from a re-analysis of the deposited data

Results flagged for a closer look

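A library lay far from the other 5 of its group in 7 of 38 groups of 6. For independent groups of normally distributed values, 1 in 20 would be about 1.9. These groups are not independent, because libraries recur and the medians include the named genes, so 7 cannot be judged against 1.9. In the post-pubertal left ovaries, animal 2057 stood apart in the median log2 level of the 44 genes called higher in the right ovary, at 1.96 with the nearest other at 0.19. The same library stood apart for ENSBTAG00000021588, at 66.1 CPM against 13.5 CPM, and for ENSBTAG00000043565, at 679 CPM against 194 CPM. In the pre-pubertal left ovaries, animal 2046 stood apart for ENSBTAG00000047551, at 957 CPM against 256 CPM, and for the median log2 level of the 6 genes called lower in the right ovary, at 1.15 with the nearest other just under 0. In the pre-pubertal right ovaries, animal 2046 had 16.7% of reads not aligned uniquely against 10.7% for the nearest. Animal 2060 had 36.4% of gene reads in the 10 most counted genes, against 30.9% for the nearest.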

How the results depend on the processing

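Depth limits every count, at 184808 to 334454 gene reads per library. Against 50 genes called in the right ovary, DESeq2 called 165 (132 higher, 33 lower), edgeR with no filter on low counts 265 (182 higher, 83 lower), voom with quality weights 26 and library set 1 alone 28, while library set 2 alone gave 0 with 267 at an unadjusted p under 0.05. The count was 19 without animals 2054 and 2059, 21 without 2047 and 2059, 27 with library sizes alone and 0 with exchanged statuses of 2054 and 2059. The last 3 of these, like thinning and leaving out the 10 most counted genes, were chosen after seeing the data. Leaving out 1 animal at a time gave 21 to 89 called genes. The other alternatives, among them RLE factors (47), a library set term (54), a stricter filter (45), the most counted gene left out (49) and equal depth (45), stayed within 1.5 times the main count. The cause of these differences was not tested.

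With no filter, edgeR called 4 genes in the left ovary and 6 for the difference between sides. With no replicate block that difference gave 0 genes, as with the block. Leaving out 1 animal at a time gave 0 to 11 genes for it and 0 for the left ovary. The difference in the most counted gene lost its call without 2054 and 2059 (7.19 percentage points), without 2047 and 2059 (4.27) and within library sets 1 (6.45) and 2 (11.6), and that in the 10 most counted genes within sets 1 (9.04) and 2 (19.2), where 3 animals against 3 cannot reach 0.05. Leaving out 1 animal at a time gave 6.63 to 11.0 and 9.78 to 16.9 points for these. Without animal 2061 the share of reads in genes differed by 0.177 points (exact permutation p = 0.0216), from 0.0777 to 0.177 over single animals left out. Without it reads not aligned uniquely differed by -2.28 points (exact permutation p = 0.013), from -2.28 to -0.742.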
